A study of Mus musculus with 12 samples.

Results

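The genes described here are 42 mouse genes of mitosis and the spindle, the set a T cell needs to condense, align and separate its chromosomes and then divide. They were listed by name, with earlier results of these data known, and each was looked up among array clusters that carry exactly 1 gene symbol. Of the 42 listed genes 41 were found, among 22180 genes in all. Ncapg was not found, because its cluster also lists Lcorl. Each of the 41 genes had 1 cluster, so no choice between clusters was needed.

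The study asked how alloreactive CD8 and CD4 T cells that have turned on Foxp3, the factor that defines regulatory T cells, differ from cells that have not. Gene expression was measured on 12 arrays in 4 groups of 3, labelled A to C in each group. The CD8 Foxp3-positive cells were grown for 4 days with IL-2 (5 ng/mL), TGF-β (5 ng/mL) and retinoic acid (40 nM) and sorted as GFP-positive. CD8 control cells had 4 days of IL-2 (5 ng/mL) alone and were sorted as GFP-negative. CD4 Foxp3-positive and CD4 control cells had the same treatments and sorts after 5 days. All 4 groups were C57BL6 cells with a GFP reporter of Foxp3, set up as resting T cells (200000 per well) with CD11c dendritic cells of BALB/c mice (20000 per well). The cytokines and the sorted fraction differ together between Foxp3-positive and control cells, and lineage differs together with days of culture, so within each pair the effects cannot be told apart. Wells were combined ahead of the sort, and nothing in the labels tells whether A, B and C are distinct cultures or mice. All p-values therefore speak only of the spread among these arrays, part or all of which may be technical.

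As background, a dividing T cell turns these genes on in G2 and switches them off again when mitosis ends. Cyclins with their kinase start mitosis, condensin packs the chromosomes, kinetochores tie them to the spindle, and the checkpoint holds the cell back until every kinetochore is attached. The anaphase-promoting complex then destroys cyclin and securin, and the central spindle places the ring that cuts the cell in 2. Many promoters of these genes share a pair of sequence elements, a CCAAT box bound by NF-Y and a cell cycle homology region, bound by the DREAM complex in resting cells and by B-Myb and FoxM1 complexes in cycling ones.

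Promoters are shown because these elements are what the genes are known to have in common. The 5 printed belong to the members with the largest fall in CD8 Foxp3-positive cells in 5 of the role groups described further on. Each is the 180 bases before the transcription start, 5′ to 3′ on the gene's strand, from RefSeq on build GRCm38.p6. Capitals mark CCAAT boxes and the TTTGAA or TTTAAA core of the cell cycle homology region, on either strand. Plk4 lies at chr3:40799771-40799950 (+), Bub1 at chr2:127831860-127832039 (-) and Ndc80 at chr17:71526858-71527037 (-). Kif11 lies at chr19:37376202-37376381 (+) and Ect2 at chr3:27153879-27154058 (-), the first of the 2 promoters listed for it.
Plk4: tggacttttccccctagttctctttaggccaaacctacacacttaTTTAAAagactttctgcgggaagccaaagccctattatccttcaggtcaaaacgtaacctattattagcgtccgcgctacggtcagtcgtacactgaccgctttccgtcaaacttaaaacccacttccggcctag
Bub1: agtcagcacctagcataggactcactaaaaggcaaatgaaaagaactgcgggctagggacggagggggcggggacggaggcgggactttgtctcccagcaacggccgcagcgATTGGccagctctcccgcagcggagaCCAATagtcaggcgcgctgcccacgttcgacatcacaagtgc
Ndc80: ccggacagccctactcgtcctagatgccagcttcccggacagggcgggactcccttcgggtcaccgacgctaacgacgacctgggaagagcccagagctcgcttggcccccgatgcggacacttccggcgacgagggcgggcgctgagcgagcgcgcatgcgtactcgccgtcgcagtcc
Kif11: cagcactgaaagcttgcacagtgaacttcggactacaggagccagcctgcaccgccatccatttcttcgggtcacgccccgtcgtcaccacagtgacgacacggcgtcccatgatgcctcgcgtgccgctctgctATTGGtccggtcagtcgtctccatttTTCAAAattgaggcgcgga
Ect2: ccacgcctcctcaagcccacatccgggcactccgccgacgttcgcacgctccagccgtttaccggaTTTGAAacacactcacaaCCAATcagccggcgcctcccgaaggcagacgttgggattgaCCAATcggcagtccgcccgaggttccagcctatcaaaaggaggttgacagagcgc

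The Kif11 promoter held a CCAAT box 45 bases and a TTTGAA core 19 bases before the start. Ect2 held CCAAT boxes 96 and 55 bases before the start with a TTTGAA core at 114 bases, and Bub1 held CCAAT boxes at 68 and 42 bases. Plk4 held a TTTAAA core at 135 bases, and the printed stretch of Ndc80 held neither element. Promoters were listed for 34 of the 41 genes, 37 promoters in all, each 250 bases before to 50 bases after the start. Ccna2, Aurkb, Cdc25c, Kif20a, Incenp, Tpx2 and Smc4 had no entry matched. CCAAT, searched on both strands, was present in 75.7% of the 37 member promoters and 37.4% of all 32851 promoters. TTTGAA was present in 75.7% of member promoters and 17.9% of all, and TTTAAA in 24.3% and 13.2%. A CCAAT box together with either core was present in 70.3% of member promoters and 10.7% of all promoters. These letter matches describe the promoters and are not measured binding sites.

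**Figure D1:**
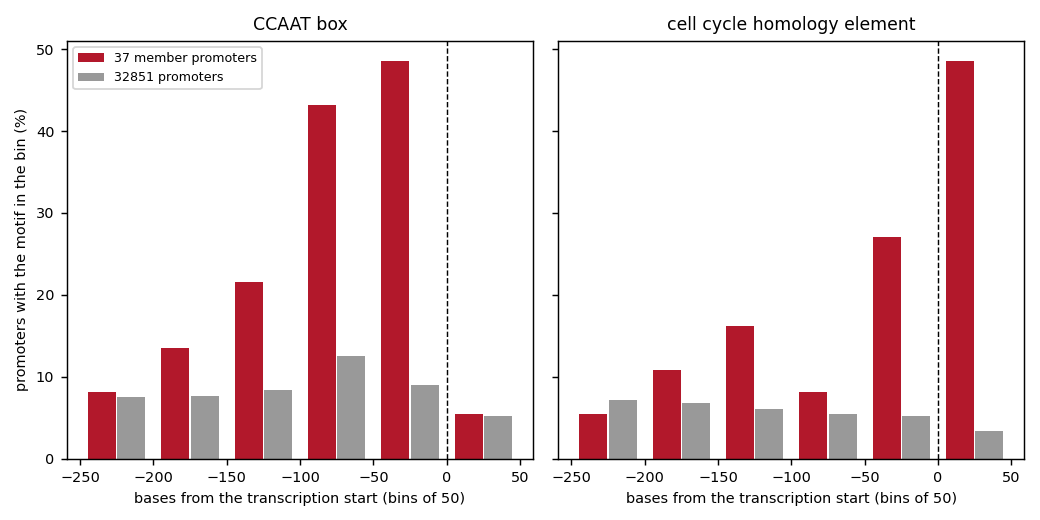
Share of promoters (percent, vertical axis) with a CCAAT box or with a TTTGAA or TTTAAA core, by distance from the transcription start (bases, horizontal axis, bins of 50 bases), for the 37 member promoters and all 32851 promoters. CCAAT was most frequent in members in the 50 bases before the start (48.6%, against 9.03% of all) and the cores in the 50 bases after it (48.6%, against 3.37%).

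The arrays went with their labels. Foxp3 read 12.45 to 12.53 in CD8 Foxp3-positive cells, against 5.23 to 6.33 in CD8 controls, and 12.39 to 12.49 in the CD4 Foxp3-positive arrays, against 5.52 to 6.07 in CD4 controls. All levels are log2 RMA values per array, on which a difference of 1 is a doubling. Cd4 read 4.90 to 6.0 in CD8 cells and 11.84 to 12.45 in CD4 cells. Cd8a read 11.72 to 12.58 in CD8 cells and, less evenly, 5.72 to 8.16 in CD4 cells. Cd8b1 read 11.84 to 12.01 in CD8 cells, 6.02 to 6.45 in CD4 Foxp3-positive cells and 7.53 to 8.02 in CD4 controls. Group means of the 41 members spanned 7.14 to 11.96. Levels of different genes are not compared here, since each probe set has its own brightness. The median SD of a member between replicates was 0.11 in CD8 Foxp3-positive cells, 0.07 in CD8 controls, 0.10 in CD4 Foxp3-positive cells and 0.10 in CD4 controls, against 0.12, 0.13, 0.13 and 0.13 for all genes.

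Across the 12 arrays the mitotic genes moved as a block, and CD8 control cells stood apart. Set against each gene's own mean over all arrays, the median member lay at -0.07, -0.05 and -0.22 in CD8 Foxp3-positive cells (arrays A, B and C), against 0.36, 0.41 and 0.34 in CD8 controls. In CD4 Foxp3-positive cells it lay at 0.08, -0.01 and -0.10, against -0.11, -0.26 and -0.30 in CD4 controls. The Foxp3-positive arrays of both lineages lay below every CD8 control array, and array C of CD8 Foxp3-positive cells (-0.22) lay within the range of CD4 controls. The CD8 control mean was the highest of the 4 groups for 40 of 41 genes (Smc4 was the exception), and the CD4 control mean the lowest for 31. Both held together for 30 members, against 10.4% of all genes. Every CD8 control array was above all 9 other arrays for 37 genes (all but Bub3, Cdc25b, Cdk1 and Smc4), which held for 7.28% of all genes. In sorted populations, fewer cells in mitosis and less mitotic RNA per cell cannot be told apart.

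**Figure D2:**
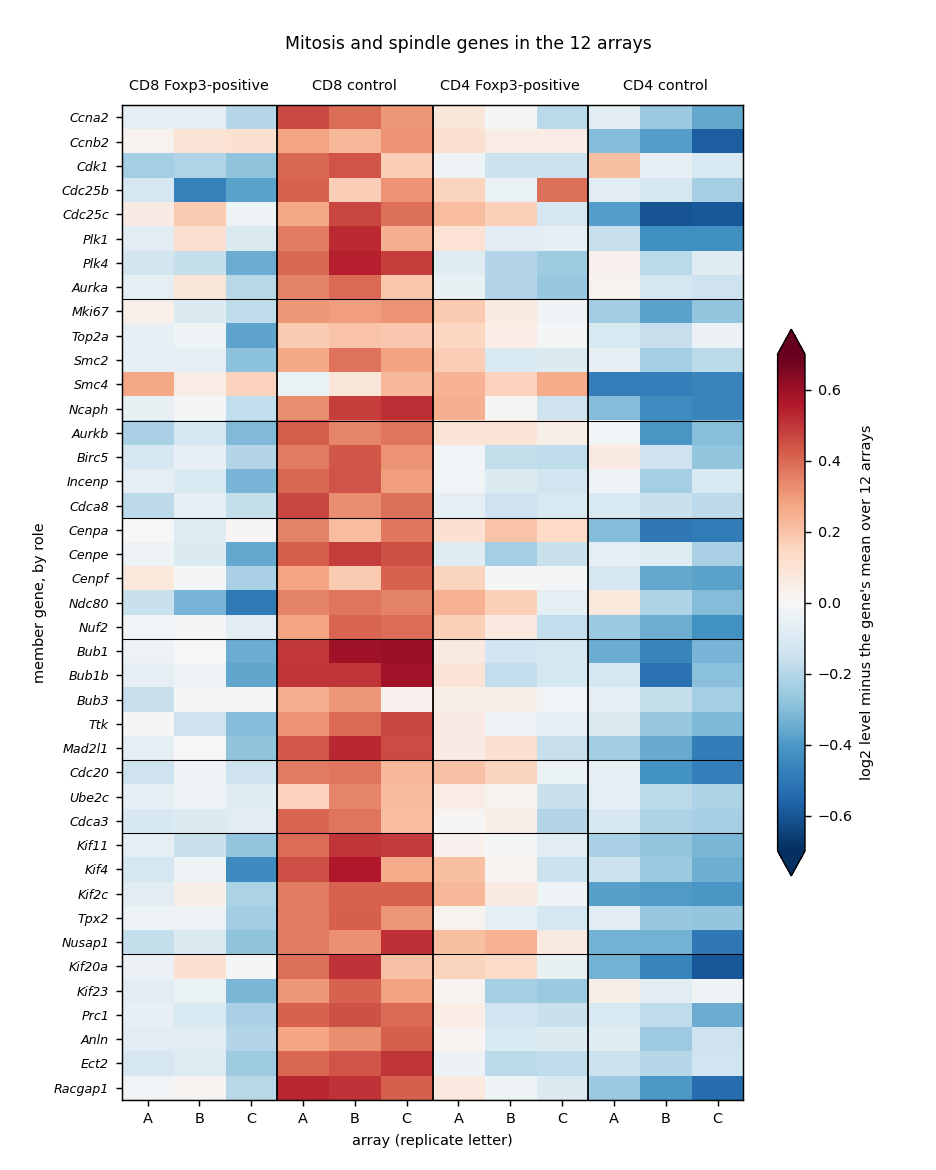
Level of each of the 41 genes (down the page, by role) in each of the 12 arrays (across), as the log2 difference from the gene's mean over all arrays. The CD8 control columns are above the gene's mean for 40 or 41 genes, and the CD4 control columns B and C are above it for 0.

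Genes of mitosis were broadly lower in CD8 Foxp3-positive cells than in CD8 controls. Of the 41 genes 37 fell in CD8 Foxp3-positive cells, none rose and 4 passed no threshold (adjusted p under 0.05, limma, adjusted over all 22180 genes). At an unadjusted p under 0.05, 40 were lower and 0 higher. Over all genes 10.6% were called lower and 9.39% higher in this comparison. The median change of the members was -0.50 (1.41-fold lower), with a range of -0.69 to 0.07, against a median of -0.02 for all genes. For 40 of 41 genes every CD8 Foxp3-positive array lay below every CD8 control array, which was so for 18.0% of all genes. The 4 genes not called were Ccnb2, Cdc25c, Smc4 and Bub3.

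In CD4 cells the same genes leaned the other way and by less. In CD4 Foxp3-positive cells 16 of 41 rose, 0 fell and 25 passed no threshold by limma, with 20 higher and 0 lower at an unadjusted p under 0.05. Over all genes 12.1% were called higher and 10.4% lower. The median change of the members was 0.25 (1.19-fold higher), with a range of -0.13 to 0.69, against 0.00 for all genes. Arrays of the groups did not overlap for 22 of the 41, all higher in Foxp3-positive cells, against 20.2% of all genes. The count of 16 was 9 without CD4 Foxp3-positive A, 9 without CD4 control C, and 10 when only the CD4 arrays were fitted. Of the 41 genes, 13 both fell in CD8 and rose in CD4 Foxp3-positive cells, and 24 fell in CD8 cells and were not called in CD4 cells. Another 3 (Ccnb2, Cdc25c and Smc4) rose in CD4 cells and were not called in CD8 cells, and Bub3 was called in neither. Over all genes 10.6% fell in CD8 and 12.1% rose in CD4 Foxp3-positive cells, but shares for these combinations were not computed.

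**Figure D3:**
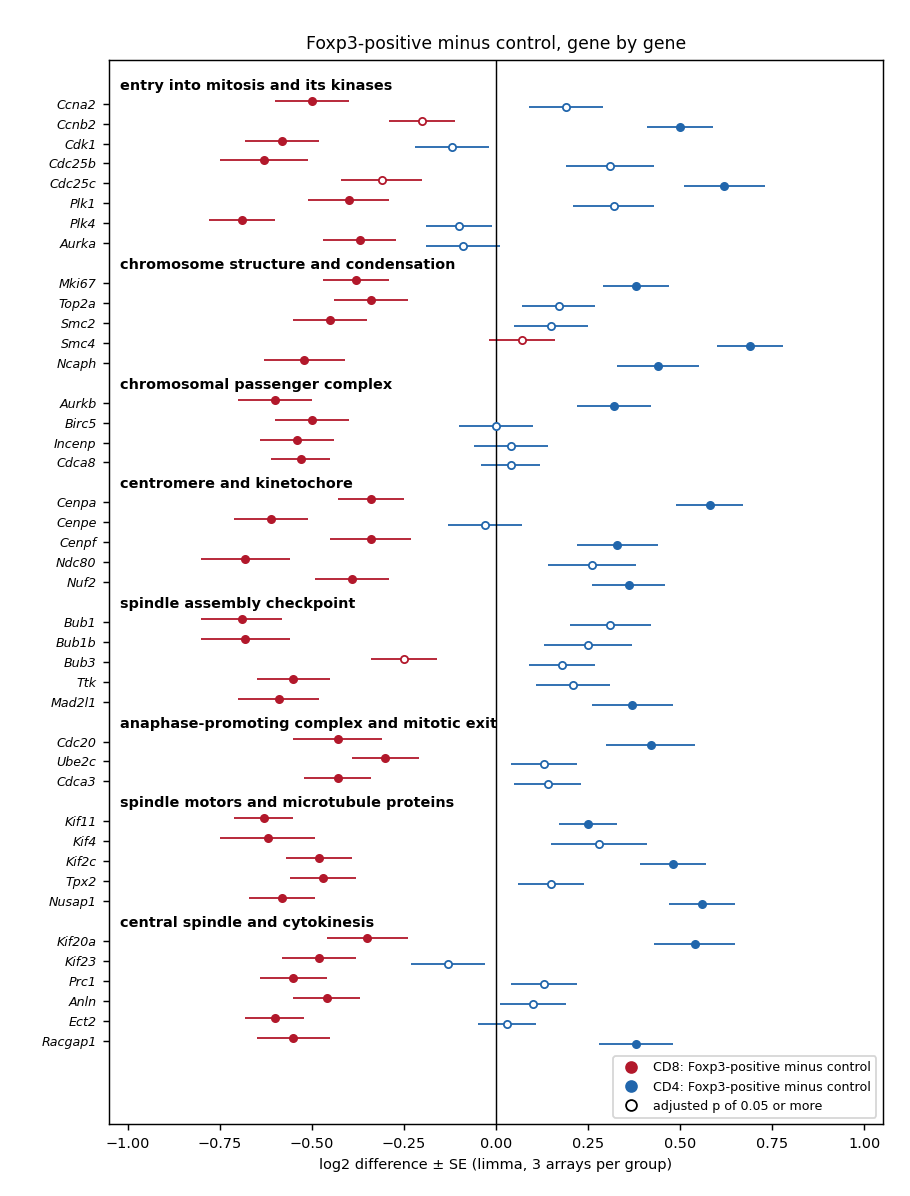
Log2 difference of Foxp3-positive from control cells for each of the 41 genes (down the page, by role) in CD8 and in CD4 cells, with the limma standard error as bars and open points where the adjusted p was 0.05 or more. The CD8 points lie between -0.69 and 0.07 and the CD4 points between -0.13 and 0.69.

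Genes for entry into mitosis (8 measured) had 6 that fell in CD8 and 2 that rose in CD4 Foxp3-positive cells, with median changes of -0.45 and 0.25. Over all genes 10.6% were called lower in CD8 and 12.1% higher in CD4 Foxp3-positive cells, shares that apply to every role group below. In groups this small, 1 or 2 CD4 rises are not read as particular to a role. Plk4, a kinase grouped here although it starts centriole duplication rather than mitosis, read 8.69, 8.65 and 8.47 in CD8 Foxp3-positive cells, against 9.22, 9.36 and 9.30 in CD8 controls. All 3 Foxp3-positive arrays were below all 3 controls, a fall of 1.62-fold (log2 -0.69 ± 0.09 SE, n = 3 each, adjusted p = 0.000152 by limma). Plk4 read 8.73, 8.61 and 8.57 in the CD4 Foxp3-positive arrays, against 8.85, 8.63 and 8.73 in CD4 controls, and these arrays overlapped (-0.10 ± 0.09, adjusted p = 0.491). Cdc25c, a phosphatase that activates Cdk1 at mitotic entry, was called in CD4 cells instead. It read 7.88, 7.83 and 7.55 in the CD4 Foxp3-positive arrays, against 7.28, 7.06 and 7.07 in CD4 controls, a rise of 1.53-fold without overlap (0.62 ± 0.11, adjusted p = 0.00117). In CD8 Foxp3-positive cells Cdc25c read 7.72, 7.85 and 7.63, against 7.93, 8.13 and 8.05 in CD8 controls, which did not pass the test (-0.31 ± 0.11, adjusted p = 0.0741).

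The other genes of the entry group followed the CD8 pattern to differing degrees. Cdk1, the mitotic kinase, fell by 0.58 on the log2 scale in CD8 Foxp3-positive cells, and its partner Ccna2 (cyclin A) fell by 0.50. Ccnb2, a B-type cyclin, was not called in CD8 cells (-0.20 ± 0.09, adjusted p = 0.136) and rose by 0.50 ± 0.09 in CD4 Foxp3-positive cells (1.41-fold, adjusted p = 0.000906). Plk1, the kinase that drives mitotic entry and spindle assembly, fell by 0.40 in CD8 cells, and Aurka, the centrosome kinase, fell by 0.37. The Plk1 and Aurka calls were each lost without CD8 Foxp3-positive A or C or CD8 control A or B (adjusted p = 0.0522 to 0.089 for Plk1 and 0.0571 to 0.0903 for Aurka). In CD4 cells Cdk1 (-0.12), Ccna2 (0.19), Aurka (-0.09) and Plk1 (0.32, adjusted p = 0.0541) did not pass.

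Genes of chromosome structure (5 of 6 measured) had 4 that fell in CD8 and 3 that rose in CD4 Foxp3-positive cells, with medians of -0.38 and 0.38. Ncaph, the kleisin subunit of condensin I, read 9.39, 9.43 and 9.27 in CD8 Foxp3-positive cells, against 9.77, 9.93 and 9.96 in CD8 controls (1.44-fold lower, -0.52 ± 0.11, adjusted p = 0.0034). It read 9.69, 9.45 and 9.30 in the CD4 Foxp3-positive arrays, against 9.14, 9.01 and 8.98 in CD4 controls (1.35-fold higher, 0.44 ± 0.11, adjusted p = 0.00965). Neither pair of groups overlapped, and the directions were opposite. Smc4, a condensin ATPase, was the one member whose estimate was not below 0 in CD8 cells. It read 11.23, 11.01 and 11.12 in CD8 Foxp3-positive cells, against 10.91, 11.04 and 11.19 in CD8 controls, with overlapping arrays (0.07 ± 0.09, adjusted p = 0.696). The CD4 Foxp3-positive arrays read 11.20, 11.12 and 11.22, against 10.48, 10.48 and 10.49 in CD4 controls, the largest rise of any member (1.62-fold, 0.69 ± 0.09, adjusted p = 0.000104).

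Its condensin partner Smc2 fell by 0.45 ± 0.10 in CD8 Foxp3-positive cells (adjusted p = 0.00686) and was not called in CD4 cells (0.15 ± 0.10, adjusted p = 0.338). Mki67, which encodes the Ki-67 antigen that coats mitotic chromosomes, fell 1.30-fold in CD8 Foxp3-positive cells (-0.38 ± 0.09, adjusted p = 0.00691) and rose 1.30-fold in CD4 Foxp3-positive cells (0.38 ± 0.09, adjusted p = 0.00699). Top2a, the topoisomerase that untangles sister DNA, fell by 0.34 ± 0.10 in CD8 cells (adjusted p = 0.0251) and did not pass in CD4 cells (0.17 ± 0.10). The Top2a call was lost without CD8 Foxp3-positive C or CD8 control A or B (adjusted p = 0.064 to 0.107).

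All 4 genes of the chromosomal passenger complex, which corrects wrong attachments and then moves to the midzone, fell in CD8 Foxp3-positive cells, and 1 rose in CD4 Foxp3-positive cells (medians -0.54 and 0.04). Aurkb, its kinase, read 10.21, 10.32 and 10.13 in CD8 Foxp3-positive cells, against 10.86, 10.78 and 10.81 in CD8 controls (1.51-fold lower, -0.60 ± 0.10, adjusted p = 0.000952). It read 10.53, 10.53 and 10.48 in the CD4 Foxp3-positive arrays, against 10.42, 10.03 and 10.14 in CD4 controls (1.25-fold higher, 0.32 ± 0.10, adjusted p = 0.0381). Neither pair overlapped, though control A of CD4 cells came close to the Foxp3-positive arrays. The CD4 call was lost without any 1 of 6 arrays: each CD4 Foxp3-positive array, CD4 control B or C, and CD8 Foxp3-positive A (adjusted p = 0.0518 to 0.158). The scaffold Incenp fell by 0.54, Cdca8 (borealin) by 0.53 and Birc5 (survivin) by 0.50 in CD8 cells. In CD4 cells Incenp (0.04), Cdca8 (0.04) and Birc5 (0.00) were not called, with adjusted p = 0.765 to 0.984.

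All 5 centromere and kinetochore genes fell in CD8 Foxp3-positive cells and 3 rose in CD4 Foxp3-positive cells (medians -0.39 and 0.33). Ndc80, the outer kinetochore protein that grips microtubules, read 10.03, 9.86 and 9.69 in CD8 Foxp3-positive cells, against 10.53, 10.56 and 10.53 in CD8 controls (1.60-fold lower, -0.68 ± 0.12, adjusted p = 0.00133). Its CD4 Foxp3-positive arrays read 10.43, 10.35 and 10.12, against 10.26, 9.97 and 9.88 in CD4 controls, with overlap and no call (0.26 ± 0.12, adjusted p = 0.155). The CD8 control arrays of Ndc80 were nearly identical to each other (SD 0.02). Its arrays were spread more widely in CD8 Foxp3-positive cells (0.17), CD4 Foxp3-positive cells (0.16) and CD4 controls (0.20). Cenpa, the histone variant that marks the centromere, read 10.01, 9.92 and 10.02 in CD8 Foxp3-positive cells, against 10.36, 10.23 and 10.38 in CD8 controls (1.27-fold lower, -0.34 ± 0.09, adjusted p = 0.0126). It read 10.12, 10.21 and 10.15 in the CD4 Foxp3-positive arrays, against 9.71, 9.51 and 9.52 in CD4 controls (1.50-fold higher, 0.58 ± 0.09, adjusted p = 0.000276). Cenpa was thus separated in both lineages, in opposite directions, but its CD8 call was lost without CD8 Foxp3-positive B (adjusted p = 0.0537).

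Nuf2, the direct partner of Ndc80, fell by 0.39 ± 0.10 in CD8 and rose by 0.36 ± 0.10 in CD4 Foxp3-positive cells. Its CD4 call was lost without CD4 Foxp3-positive A or B or CD4 control C (adjusted p = 0.0584 to 0.0761). Cenpf, a large outer kinetochore protein, passed narrowly in both lineages (-0.34 ± 0.11, adjusted p = 0.0439, in CD8 and 0.33 ± 0.11, adjusted p = 0.0488, in CD4). The CD8 call of Cenpf was lost without array B or C of either Foxp3-positive group, CD8 control A or C, or CD4 control B or C (adjusted p = 0.0518 to 0.176). Its CD4 call was lost without any CD4 Foxp3-positive array, CD8 Foxp3-positive A or B, CD8 control A or B, or CD4 control B or C (adjusted p = 0.0512 to 0.159). Cenpe, the kinetochore motor that brings chromosomes to the spindle equator, fell by 0.61 ± 0.10 in CD8 cells and was not called in CD4 cells (-0.03 ± 0.10, adjusted p = 0.855).

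Of the 5 spindle assembly checkpoint genes 4 fell in CD8 Foxp3-positive cells and 1 rose in CD4 Foxp3-positive cells (medians -0.59 and 0.25). Bub1, a checkpoint kinase at the kinetochore, read 8.91, 8.95 and 8.60 in CD8 Foxp3-positive cells, against 9.44, 9.54 and 9.55 in CD8 controls (1.62-fold lower, -0.69 ± 0.11, adjusted p = 0.000403). Its CD4 Foxp3-positive arrays read 9.01, 8.81 and 8.82, against 8.60, 8.49 and 8.62 in CD4 controls. These CD4 arrays did not overlap, but the change did not pass the test (0.31 ± 0.11, adjusted p = 0.0553). Mad2l1, which encodes the Mad2 protein that inhibits Cdc20, read 9.34, 9.40 and 9.12 in CD8 Foxp3-positive cells, against 9.83, 9.93 and 9.86 in CD8 controls (1.50-fold lower, -0.59 ± 0.11, adjusted p = 0.00144). It read 9.46, 9.52 and 9.24 in the CD4 Foxp3-positive arrays, against 9.16, 9.05 and 8.92 in CD4 controls (1.29-fold higher, 0.37 ± 0.11, adjusted p = 0.0246). The CD4 call of Mad2l1 was lost without CD4 Foxp3-positive A or B or CD4 control B or C (adjusted p = 0.0613 to 0.1).

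Bub1b, which encodes BubR1 of the mitotic checkpoint complex, read 8.88, 8.91 and 8.58 in CD8 Foxp3-positive cells, against 9.44, 9.44 and 9.53 in CD8 controls (1.60-fold lower, -0.68 ± 0.12, adjusted p = 0.00142). It read 9.04, 8.77 and 8.82 in the CD4 Foxp3-positive arrays, against 8.82, 8.42 and 8.65 in CD4 controls, which overlapped (0.25 ± 0.12, adjusted p = 0.18). Bub3, the protein that docks Bub1 and BubR1 at kinetochores, was the only member called in neither lineage. It read 11.04, 11.19 and 11.19 in CD8 Foxp3-positive cells, against 11.45, 11.50 and 11.23 in CD8 controls (-0.25 ± 0.09, adjusted p = 0.0803). The CD8 arrays of Bub3 did not overlap, though control C lay only just above the Foxp3-positive arrays. Its CD4 Foxp3-positive arrays read 11.24, 11.24 and 11.18, against 11.14, 11.03 and 10.96 in CD4 controls (0.18 ± 0.09, adjusted p = 0.204). Ttk, the Mps1 kinase at the head of the checkpoint, fell by 0.55 in CD8 Foxp3-positive cells and was not called in CD4 cells (0.21, adjusted p = 0.15).

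All 3 genes grouped here under the anaphase-promoting complex and mitotic exit fell in CD8 Foxp3-positive cells. In CD4 Foxp3-positive cells 1 of them rose (medians -0.43 and 0.14). Cdca3 is placed in this group although it promotes mitotic entry, and the CD4 median is its own value. Cdc20, the activator that starts anaphase, read 9.66, 9.78 and 9.66 in CD8 Foxp3-positive cells, against 10.17, 10.18 and 10.04 in CD8 controls (1.35-fold lower, -0.43 ± 0.12, adjusted p = 0.0177). It read 10.01, 9.96 and 9.76 in the CD4 Foxp3-positive arrays, against 9.74, 9.39 and 9.33 in CD4 controls (1.34-fold higher, 0.42 ± 0.12, adjusted p = 0.0182). Neither pair overlapped, the changes being of nearly equal size and opposite sign. Each Cdc20 call was lost when 1 of 4 arrays was left out: CD8 Foxp3-positive A or C or CD8 control A or B (adjusted p = 0.06 to 0.0611), and CD4 Foxp3-positive A or B or CD4 control B or C (0.0619 to 0.0817). Ube2c, the ubiquitin-conjugating enzyme of the complex, fell by 0.30 in CD8 cells, a call lost without any CD8 Foxp3-positive array or without CD8 control B (adjusted p = 0.0618 to 0.113). Cdca3, which promotes entry into mitosis by way of Wee1 destruction, fell by 0.43 in CD8 cells, and in CD4 cells neither Ube2c (0.13) nor Cdca3 (0.14) was called.

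All 5 spindle motor and microtubule genes fell in CD8 Foxp3-positive cells and 3 rose in CD4 Foxp3-positive cells (medians -0.58 and 0.28). Kif11, the Eg5 motor that pushes spindle poles apart, read 10.29, 10.20 and 10.08 in CD8 Foxp3-positive cells, against 10.75, 10.86 and 10.85 in CD8 controls (1.55-fold lower, -0.63 ± 0.08, adjusted p = 0.000127). It read 10.39, 10.35 and 10.28 in the CD4 Foxp3-positive arrays, against 10.13, 10.08 and 10.04 in CD4 controls (1.19-fold higher, 0.25 ± 0.08, adjusted p = 0.0454). The CD4 call of Kif11 was lost without any 1 of 9 arrays: each CD4 array, CD8 Foxp3-positive B and CD8 control A or B (adjusted p = 0.0538 to 0.133). Nusap1, a protein that bundles microtubules near chromosomes, read 9.95, 10.02 and 9.84 in CD8 Foxp3-positive cells, against 10.48, 10.44 and 10.63 in CD8 controls (1.49-fold lower, -0.58 ± 0.09, adjusted p = 0.000608). It read 10.33, 10.36 and 10.18 in the CD4 Foxp3-positive arrays, against 9.79, 9.79 and 9.62 in CD4 controls (1.47-fold higher, 0.56 ± 0.09, adjusted p = 0.000722). Nusap1 arrays were well separated in both lineages.

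Kif2c, the MCAK enzyme that takes microtubules apart at centromeres, read 9.65, 9.77 and 9.51 in CD8 Foxp3-positive cells, against 10.09, 10.14 and 10.14 in CD8 controls (1.39-fold lower, -0.48 ± 0.09, adjusted p = 0.00231). It read 9.96, 9.79 and 9.70 in the CD4 Foxp3-positive arrays, against 9.35, 9.33 and 9.32 in CD4 controls (1.39-fold higher, 0.48 ± 0.09, adjusted p = 0.0021). Both controls of Kif2c were tight, and neither overlapped its Foxp3-positive group. Kif4, the chromosome-bound motor also active at the midzone, fell by 0.62 in CD8 cells, and Tpx2, which activates Aurora A on the spindle, fell by 0.47. In CD4 cells neither Kif4 (0.28, adjusted p = 0.154) nor Tpx2 (0.15, adjusted p = 0.297) was called.

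All 6 genes of the central spindle and cytokinesis fell in CD8 Foxp3-positive cells and 2 rose in CD4 Foxp3-positive cells (medians -0.51 and 0.12). Ect2, the exchange factor that activates RhoA for the contractile ring, read 10.22, 10.25 and 10.09 in CD8 Foxp3-positive cells, against 10.74, 10.78 and 10.84 in CD8 controls (1.52-fold lower, -0.60 ± 0.08, adjusted p = 0.000164). It read 10.30, 10.15 and 10.16 in the CD4 Foxp3-positive arrays, against 10.19, 10.14 and 10.20 in CD4 controls (0.03 ± 0.08, adjusted p = 0.861). The CD8 arrays of Ect2 were separate and its CD4 arrays overlapped. Racgap1, which recruits Ect2 to the midzone, read 9.72, 9.76 and 9.55 in CD8 Foxp3-positive cells, against 10.27, 10.25 and 10.16 in CD8 controls (1.46-fold lower, -0.55 ± 0.10, adjusted p = 0.00112). It read 9.81, 9.71 and 9.64 in the CD4 Foxp3-positive arrays, against 9.48, 9.34 and 9.21 in CD4 controls (1.30-fold higher, 0.38 ± 0.10, adjusted p = 0.0118). Neither pair overlapped for Racgap1, and its CD4 call was lost without CD4 Foxp3-positive A or CD4 control C (adjusted p = 0.0517 to 0.0566).

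Kif20a, the midzone motor MKLP2, read 9.99, 10.14 and 10.02 in CD8 Foxp3-positive cells, against 10.42, 10.54 and 10.24 in CD8 controls (1.27-fold lower, -0.35 ± 0.11, adjusted p = 0.0344). It read 10.19, 10.17 and 9.98 in the CD4 Foxp3-positive arrays, against 9.70, 9.57 and 9.44 in CD4 controls (1.46-fold higher, 0.54 ± 0.11, adjusted p = 0.00215). Neither pair overlapped, but the CD8 call was lost without CD8 Foxp3-positive A or C or CD8 control A or B (adjusted p = 0.0958 to 0.137). Kif23, the motor partner of Racgap1, fell by 0.48 in CD8 cells, as did the microtubule bundler Prc1 (0.55 lower) and the ring scaffold Anln (anillin, 0.46 lower). In CD4 cells Kif23 (-0.13), Prc1 (0.13) and Anln (0.10) were not called.

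**Figure D4:**
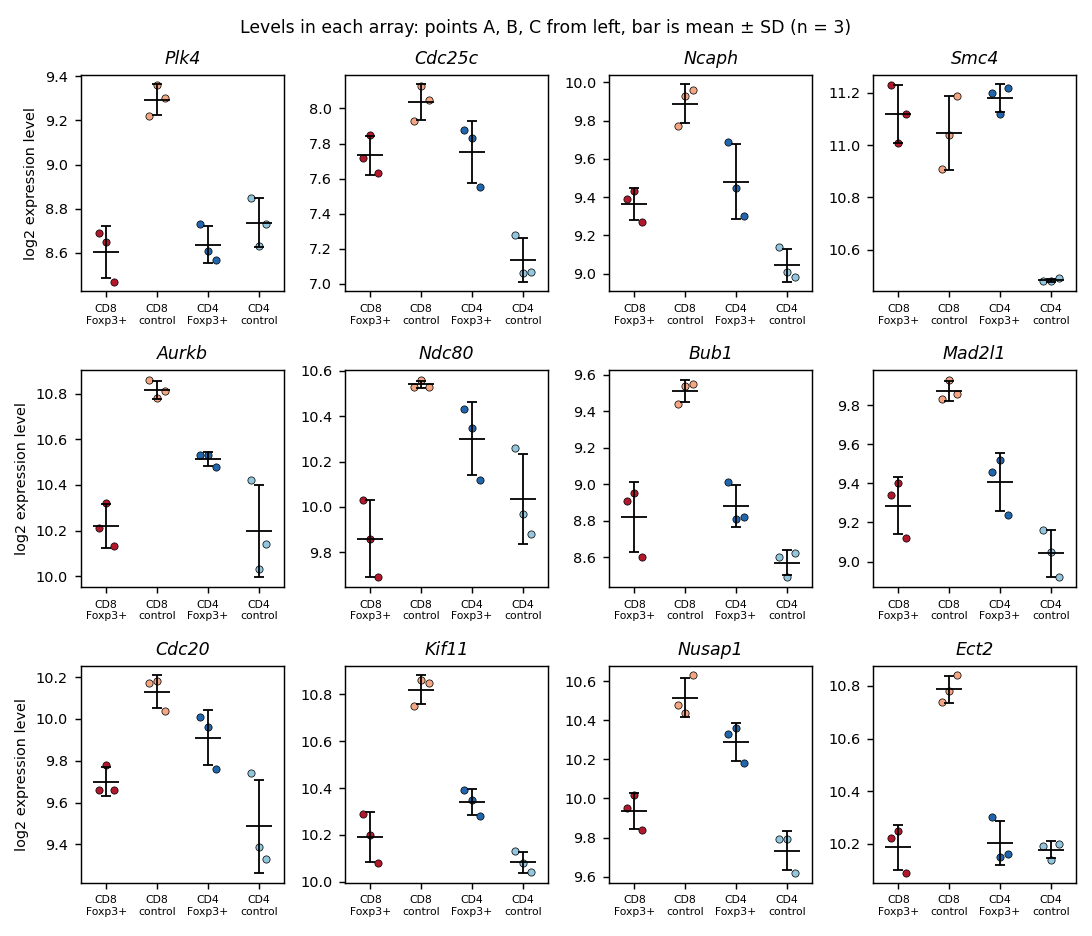
Log2 RMA level (vertical axis) of genes from the 8 role groups in each of the 12 arrays, with arrays A, B and C as points from left to right and the group mean ± SD as a bar (n = 3). In each panel CD8 Foxp3-positive cells stand left of CD8 controls and CD4 Foxp3-positive cells left of CD4 controls, and the CD8 controls have the highest mean in the panels other than Smc4.

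Whether the lineages responded differently was tested as an interaction, the Foxp3-positive minus control difference in CD8 cells minus that in CD4 cells. The interaction was below 0 and called for 38 of 41 genes and above 0 and called for 0 by limma (40 and 0 at an unadjusted p under 0.05), against 7.48% of all genes called below 0 and 6.01% above. Its median over the members was -0.70, with a range of -1.14 to -0.28. The largest was that of Nusap1 (-1.14 ± 0.13, a 2.20-fold difference in response, adjusted p = 0.000129). Bub1 followed with -1.0 ± 0.15 (adjusted p = 0.00082), then Ncaph (-0.96 ± 0.15, adjusted p = 0.00116), Kif2c (-0.96 ± 0.13, adjusted p = 0.000433) and Mad2l1 (-0.95 ± 0.15, adjusted p = 0.00116). Cdk1 (-0.45, adjusted p = 0.063), Kif23 (-0.34, adjusted p = 0.155) and Aurka (-0.28, adjusted p = 0.251) were not called. By role the median interaction was -0.93 for the checkpoint, -0.90 for spindle motors, -0.76 for centromere and kinetochore and -0.69 for entry. It was -0.66 for cytokinesis, -0.62 for chromosome structure and -0.58 for the passenger complex. For the group listed as mitotic exit it was -0.56, the value of Cdca3, itself a gene that promotes entry. The interaction call of Bub3 was lost without any array other than CD8 control C and CD4 control A (adjusted p = 0.0642 to 0.112). That of Birc5 was lost without CD8 Foxp3-positive A or C, CD8 control A or B, CD4 Foxp3-positive A or B, or CD4 control B or C (adjusted p = 0.0513 to 0.082). Top2a lost it without CD8 Foxp3-positive C, CD8 control A or B, CD4 Foxp3-positive A or B, or CD4 control A or B (adjusted p = 0.0515 to 0.0714). Ube2c lost it without any CD8 Foxp3-positive array, CD8 control B, CD4 Foxp3-positive A or B, or CD4 control B or C (adjusted p = 0.0646 to 0.0934).

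Between the control groups, CD8 cells on day 4 had higher levels of mitotic genes than CD4 cells on day 5. Of the 41 genes 40 were higher in CD8 controls and 0 lower by limma, with 41 higher and 0 lower at an unadjusted p under 0.05. Over all genes 12.1% were called higher and 8.76% lower. Arrays did not overlap for 40 of the 41 (all but Cdk1), each higher in CD8 controls, against 18.3% of all genes. The median difference was 0.61 (1.53-fold), with a range of 0.29 to 0.94, and the one gene not called was Top2a (0.29 ± 0.10, adjusted p = 0.0501). Bub1 differed most, 1.92-fold (0.94 ± 0.11, adjusted p = 3.99e-05), its 3 CD8 control arrays at 9.44 to 9.55 lying above the 3 CD4 control arrays at 8.49 to 8.62. Cdc25c was 1.87-fold higher in CD8 controls (0.90 ± 0.11, adjusted p = 7.54e-05), Racgap1 1.84-fold (0.88 ± 0.10, adjusted p = 2.93e-05), Ncaph 1.80-fold (0.85 ± 0.11, adjusted p = 0.000101) and Bub1b 1.79-fold (0.84 ± 0.12, adjusted p = 0.000312). The calls of Aurka and Kif23 were lost without CD8 control A or B or CD4 control B or C (adjusted p = 0.0501 to 0.0923), that of Bub3 without CD8 control A or B or CD4 control C (0.0631 to 0.0669), and that of Cdk1 without any array but CD8 control C and CD4 control A (0.0575 to 0.167). This comparison shares its control arrays with both Foxp3-positive comparisons and is no separate evidence of them.

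Between the Foxp3-positive groups few differences passed the test, among the members as among all genes. Of the 41 genes 1 was called lower in CD8 Foxp3-positive than in CD4 Foxp3-positive cells and 0 higher by limma (5 and 0 at an unadjusted p under 0.05). Over all genes 2.3% were called lower and 2.41% higher, so 1 member (2.44%) stands near the share of all genes. The count of 1 was 0 without CD8 Foxp3-positive B or C, CD4 Foxp3-positive A, or CD4 control B or C, and 2 without CD8 control C or CD4 Foxp3-positive C. The estimate was below 0 for 38 of the 41 genes and above 0 for 3, against 11419 of all 22180 genes below 0. The median difference was -0.07, with a range of -0.50 to 0.12. The 95% interval contained 0 for 36 of 41 genes, and over all members the intervals reached from -0.76 to 0.34 with a median width of 0.42, so differences of up to these sizes are not excluded gene by gene. Arrays did not overlap for 7 genes, all lower in CD8 Foxp3-positive cells, against 11.4% of all genes. Over all genes, calls between lineages were likewise fewer among Foxp3-positive groups (2.41% higher and 2.3% lower) than among controls (12.1% and 8.76%). The absolute difference between lineages was smaller in Foxp3-positive cells than in controls for 40 of 41 genes, and the share of all genes was not computed.

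The exception was Cdc25b, a phosphatase that activates Cdk1 at the centrosome before mitosis. It read 8.97, 8.62 and 8.72 in CD8 Foxp3-positive cells and 9.25, 9.05 and 9.48 in CD4 Foxp3-positive cells (1.41-fold lower in CD8, -0.50 ± 0.12, adjusted p = 0.0399). In the controls it read 9.51, 9.27 and 9.41 in CD8 cells and 9.02, 8.98 and 8.86 in CD4 cells (0.44 ± 0.12, adjusted p = 0.0218), a call lost without CD8 control A or C or CD4 control B or C (adjusted p = 0.0518 to 0.0887). Cdc25b fell 1.55-fold in CD8 Foxp3-positive cells against their controls (-0.63 ± 0.12, adjusted p = 0.00255), while the CD4 difference was not called (0.31 ± 0.12, adjusted p = 0.0986). Its call between the Foxp3-positive groups was lost without any 1 of 7 arrays: CD8 Foxp3-positive B or C, CD4 Foxp3-positive A or C, or any CD4 control array (adjusted p = 0.0504 to 0.16). Next in size were Ndc80 (-0.44 ± 0.12, adjusted p = 0.0643) and Nusap1 (-0.35 ± 0.09, adjusted p = 0.0529), neither of them called.

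**Figure D5:**
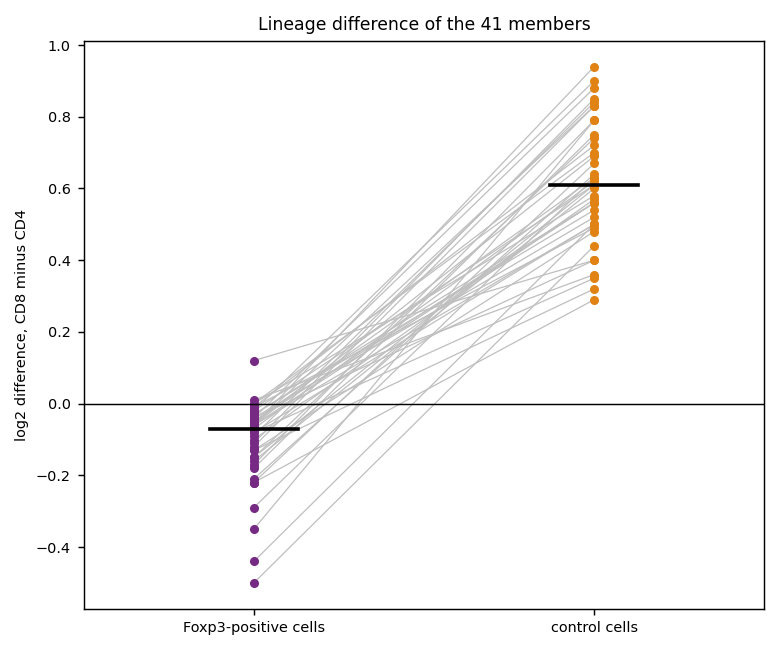
CD8 minus CD4 log2 difference of each of the 41 genes, among Foxp3-positive cells (left) and among control cells (right), with a grey line joining the points of a gene and a black bar at the median. Control differences lie between 0.29 and 0.94, and Foxp3-positive differences between -0.50 and 0.12.

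A wider list of other mitotic genes, 56 of 62 measured, is given for comparison. In CD8 Foxp3-positive cells 49 of the 56 fell and 1 rose (median -0.51), against 10.6% of all genes called lower and 9.39% higher. In CD4 Foxp3-positive cells 12 rose and 1 fell (median 0.18), against 12.1% of all genes called higher and 10.4% lower. The 12 CD4 rises became 19 without CD4 control A. Ska3, part of the complex that couples kinetochores to moving microtubule ends, read 7.33, 7.35 and 7.32 in CD8 Foxp3-positive cells, against 8.19, 8.26 and 8.17 in CD8 controls (1.83-fold lower, -0.87 ± 0.09, adjusted p = 2.43e-05). Ncapg2, a condensin II subunit, read 8.80, 8.67 and 8.45 in CD8 Foxp3-positive cells, against 9.45, 9.48 and 9.40 in CD8 controls (1.74-fold lower, -0.80 ± 0.11, adjusted p = 0.00019). In the CD4 cells it was not called (0.07 ± 0.11, adjusted p = 0.723). The one gene that fell in CD4 cells was Pttg1, which encodes securin, the inhibitor of the enzyme that cuts sister chromatids apart. Pttg1 read 6.79, 6.87 and 6.81 in CD8 Foxp3-positive cells, against 7.64, 7.61 and 7.78 in CD8 controls (1.81-fold lower, -0.85 ± 0.09, adjusted p = 1.51e-05). It read 6.57, 6.79 and 6.67 in the CD4 Foxp3-positive arrays, against 7.30, 7.31 and 7.21 in CD4 controls (1.51-fold lower, -0.60 ± 0.09, adjusted p = 0.000231). The one gene that rose in CD8 cells was Haspin, the histone H3 kinase that recruits the passenger complex (0.49 ± 0.12, adjusted p = 0.00914), which rose in CD4 Foxp3-positive cells too (0.61 ± 0.12, adjusted p = 0.00198). Between the Foxp3-positive groups 0 of the 56 were called by limma (6 lower and 1 higher in CD8 at an unadjusted p under 0.05). Over all genes only 2.3% were called lower and 2.41% higher there, so a count of 0 stands near the share of all genes.

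Among 16 regulators of mitotic transcription 11 fell and 0 rose in CD8 Foxp3-positive cells (11 lower and 0 higher at an unadjusted p under 0.05), while in CD4 Foxp3-positive cells 2 rose and 4 fell. Over all genes 10.6% fell in the CD8 comparison, and 12.1% rose and 10.4% fell in the CD4 comparison, so the 2 CD4 rises stand near the share of all genes. E2f8, a repressor of the E2F family, read 8.42, 8.63 and 8.42 in CD8 Foxp3-positive cells, against 9.55, 9.55 and 9.22 in CD8 controls (1.92-fold lower, -0.94 ± 0.11, adjusted p = 5.65e-05), and did not pass in CD4 cells (-0.06). E2f2, an activator of the family, read 7.74, 7.79 and 7.90 in CD8 Foxp3-positive cells, against 8.87, 8.71 and 8.65 in CD8 controls (1.91-fold lower, -0.94 ± 0.11, adjusted p = 4.27e-05), and was likewise not called in CD4 cells (-0.02). Mybl2, which encodes B-Myb, read 8.87, 9.19 and 8.93 in CD8 Foxp3-positive cells, against 10.0, 9.94 and 9.46 in CD8 controls (1.74-fold lower, -0.80 ± 0.14, adjusted p = 0.00116). It read 9.15, 9.0 and 8.99 in the CD4 Foxp3-positive arrays, against 9.55, 9.34 and 9.33 in CD4 controls, without overlap but not called (-0.36, adjusted p = 0.0916). None of the 3 regulators overlapped between the CD8 groups. The CD4 rises were in Lin9 and Lin52, subunits of the MuvB core, and the falls in Lin54, another of its subunits, E2f1, E2f3 and the pocket protein gene Rbl2. The Lin52 call was lost without any CD4 Foxp3-positive array, CD8 Foxp3-positive B or C, CD8 control A or B, or CD4 control A or B (adjusted p = 0.0513 to 0.152). The E2f1 call was lost without any CD4 Foxp3-positive array, CD4 control A or C, or CD8 control B (adjusted p = 0.0511 to 0.143).

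Cell cycle inhibitors and quiescence genes moved in both directions in both lineages. Of 15 measured, 2 (Btg1 and Foxo1) rose and 7 fell in CD8 Foxp3-positive cells, and 5 rose and 3 fell in CD4 Foxp3-positive cells. With 9.39% of all genes called higher in CD8 and 12.1% in CD4 cells, the 2 CD8 rises stand near the share of all genes. The 5 CD4 rises became 3 without CD8 Foxp3-positive B, CD8 control A, CD4 Foxp3-positive A or B, or CD4 control B or C. Cdkn1a, the p21 inhibitor of cyclin-dependent kinases, read 9.93, 10.21 and 9.93 in CD8 Foxp3-positive cells, against 11.28, 11.05 and 11.11 in CD8 controls (2.17-fold lower, -1.12 ± 0.10, adjusted p = 4.36e-06). It read 10.12, 10.19 and 10.05 in the CD4 Foxp3-positive arrays, against 11.53, 11.56 and 11.63 in CD4 controls (2.73-fold lower, -1.45 ± 0.10, adjusted p = 3.09e-07). Ccng1, a p53 target, read 10.39, 10.44 and 10.35 in CD8 Foxp3-positive cells, against 11.19, 11.34 and 11.49 in CD8 controls (1.92-fold lower, -0.94 ± 0.10). It read 10.47, 10.33 and 10.52 in the CD4 Foxp3-positive arrays, against 11.16, 11.04 and 11.19 in CD4 controls (1.61-fold lower, -0.69 ± 0.10). Both Cdkn1a and Ccng1 were thus lower without overlap in each lineage. Klf2, a transcription factor of resting T cells, read 9.16, 9.19 and 9.26 in the CD4 Foxp3-positive arrays, against 7.62, 7.50 and 7.52 in CD4 controls (3.15-fold higher, 1.66 ± 0.17, adjusted p = 1.15e-05). In CD8 Foxp3-positive cells Klf2 read 8.35, 7.60 and 8.18, against 8.86, 8.35 and 8.67 in CD8 controls (-0.58 ± 0.17, adjusted p = 0.0291), with overlap of arrays and a call lost without CD8 Foxp3-positive B or CD8 control A or C (adjusted p = 0.0738 to 0.126).

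Markers of other cell types were read beside these results, since dendritic cells shared the wells. The mean level of 15 dendritic cell markers lay at 6.76 to 6.89 in CD8 Foxp3-positive cells, against 6.74 to 6.87 in CD8 controls, while CD4 Foxp3-positive arrays lay at 6.50 to 6.79, against 6.78 to 6.80 for CD4 controls. Of these markers 4 were called higher and 3 lower in CD8 Foxp3-positive cells, and 2 higher and 3 lower in CD4 Foxp3-positive cells. Among all genes the shares for CD8 cells were 9.39% higher and 10.6% lower. For CD4 cells they were 12.1% higher and 10.4% lower. The 2 CD4 rises (13.3% of the markers) thus stand near the share of all genes. Itgax, which encodes CD11c, read 4.84, 4.82 and 4.64 in CD8 Foxp3-positive cells, against 6.54, 6.63 and 6.40 in CD8 controls (3.39-fold lower, -1.76 ± 0.13, adjusted p = 1.02e-06). It read 4.60 to 5.17 in the CD4 Foxp3-positive arrays, against 4.84 to 5.08 in CD4 controls. In CD8 Foxp3-positive cells Bst2 (-1.28) and Batf3 (-0.96) were also lower, and Ccr7 (1.52), Itgam (1.19), Cd86 (0.62) and Cst3 (0.38) were higher, all on the log2 scale. The remaining 8 markers (H2-Ab1, H2-Aa, H2-Eb1, Flt3, Zbtb46, Xcr1, Cd209a and Siglech) were called neither way in CD8 cells. Ccr7, Bst2 and Batf3 are known to be expressed by T cells as well, and Itgax, Itgam, Cd86 and Cst3 are not taken as particular to dendritic cells. The CD8 call of Batf3 was lost without CD8 Foxp3-positive C or CD8 control A or B (adjusted p = 0.0572 to 0.0781), and that of Cst3 without CD8 Foxp3-positive C or CD8 control A (0.0592 to 0.0614). That of Cd86 was lost without CD8 Foxp3-positive A or B, any CD8 control array, or CD4 Foxp3-positive A or C (0.0501 to 0.157). In CD4 Foxp3-positive cells Itgam (1.38) and Ccr7 (1.06) were higher and Bst2 (-2.36), Batf3 (-1.56) and H2-Ab1 (-1.05) lower. The H2-Ab1 call was lost without CD4 Foxp3-positive A or B or CD4 control B or C (adjusted p = 0.0797 to 0.158).

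The mean of 5 B cell markers was 5.48 to 5.55 in CD8 Foxp3-positive cells, against 5.21 to 5.37 in CD8 controls, while the CD4 Foxp3-positive arrays had 5.14 to 5.36, against 5.14 to 5.25 for CD4 controls. Of the 5 markers 2 were called higher and 0 lower in CD8, and 1 higher and 1 lower in CD4 Foxp3-positive cells. Over all genes 9.39% were called higher and 10.6% lower in CD8, and 12.1% and 10.4% in CD4. Cd79b was higher in both lineages (1.10 in CD8 and 0.77 in CD4 Foxp3-positive cells on the log2 scale). Cd79a was higher in CD8 cells (adjusted p = 0.0492 by limma), a call lost without any 1 of 10 arrays. Cd22 was lower in CD4 Foxp3-positive cells (-0.60). Ms4a1, which encodes the B cell antigen CD20, read 3.49 to 4.00 over all arrays. The mean of 8 macrophage markers was 5.28 to 5.70 in CD8 Foxp3-positive cells, against 5.18 to 5.33 in CD8 controls, while the CD4 Foxp3-positive arrays had 5.18 to 5.43, against 5.22 to 5.44 for CD4 controls. Of these 8 markers 2 were called higher and 1 lower in CD8, and 1 higher and 1 lower in CD4 Foxp3-positive cells. Lyz2 was higher in both lineages (1.82 and 1.06), its CD4 call being lost without CD4 Foxp3-positive A or CD4 control A (adjusted p = 0.068 to 0.0704). C1qb was higher in CD8 cells (adjusted p = 0.0143 by limma), a call lost without CD8 Foxp3-positive B or C (0.0655 to 0.0706). Cd68 was lower in both lineages (-0.63 and -1.19). The mean of 8 T cell markers other than Foxp3 was 10.50 to 10.51 in CD8 Foxp3-positive cells, against 10.40 to 10.62 in CD8 controls, while the CD4 Foxp3-positive arrays had 9.92 to 10.30, against 10.19 to 10.51 for CD4 controls. The part of other cells in the mitotic differences was not tested.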

How the data were processed

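Total RNA (250 ng per sample) was labelled and hybridised to 12 Affymetrix arrays, 3 per group. The submitters' processing notes name RMA and Affymetrix Expression Console as the tools behind the deposited log2 levels, 1 per cluster and array. RMA gives all arrays the same distribution, so a change in total RNA per cell would not show. The sources used here give neither tool versions nor the genome build. The arrays' medians lay between 5.23 and 5.33, and the number of arrays limits the precision. The table had 34365 clusters, 23521 of them with 1 gene symbol. For 1082 genes with several clusters the brightest stood for the gene, leaving 22180 genes with no filter on level.

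All 12 arrays entered 1 model with 4 group means in limma 3.58.1 (R 4.3.3; lmFit and eBayes, no trend, not robust; 8 residual and 4.56 prior degrees of freedom). Its 5 contrasts were tested two-sided with Benjamini-Hochberg adjustment over all genes and a threshold of 0.05. Means ± SE come from it. Called means past that threshold. No batch is given in the labels.

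The members, role groups and other lists were chosen with earlier results of these data known, so lists are described by counts and medians without a test. Values per array are given for the member with the largest called change in each role group and Foxp3-positive comparison, for called members of the other contrasts if at most 10 (otherwise the 5 largest), for members called in neither Foxp3-positive comparison, and for the 3 largest of each other list. Mki67, Haspin and the cell type markers other than Foxp3 lie outside that rule and were named after their values were seen. Alternatives were another variance prior, a filter on level, averaged clusters, a fit to the contrasted groups, a replicate block, median centring, array weights and leaving out each array.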

Additional observations from a re-analysis of the deposited data

Results flagged for a closer look

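These genes stand out because their Foxp3-positive minus control difference was not the same in CD8 and CD4 cells, by the interaction test of the limma model (adjusted p under 0.05 over all 22180 genes). Each value is the CD8 difference minus the CD4 difference on the log2 scale. No group had enough arrays to look for a single array far from the rest.

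In the entry group the values were -0.94 for Cdc25b, -0.92 for Cdc25c, -0.72 for Plk1, -0.70 for Ccnb2, -0.69 for Ccna2 and -0.59 for Plk4. For chromosome structure they were -0.96 for Ncaph, -0.76 for Mki67, -0.62 for Smc4, -0.60 for Smc2 and -0.51 for Top2a. The passenger complex had -0.92 for Aurkb, -0.59 for Incenp, -0.57 for Cdca8 and -0.50 for Birc5. Centromere and kinetochore genes had -0.94 for Ndc80, -0.92 for Cenpa, -0.76 for Nuf2, -0.67 for Cenpf and -0.58 for Cenpe. Checkpoint genes had -1.0 for Bub1, -0.95 for Mad2l1, -0.93 for Bub1b, -0.76 for Ttk and -0.43 for Bub3. The group listed as mitotic exit had -0.85 for Cdc20, -0.56 for Cdca3 and -0.43 for Ube2c. Spindle motors and microtubule proteins had -1.14 for Nusap1, -0.96 for Kif2c, -0.90 for Kif4, -0.89 for Kif11 and -0.62 for Tpx2. Cytokinesis genes had -0.93 for Racgap1, -0.89 for Kif20a, -0.68 for Prc1, -0.63 for Ect2 and -0.56 for Anln.

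Outside the 41 genes, Klf2 had the largest value of those named (-2.24), being 1.50-fold lower in CD8 Foxp3-positive and 3.15-fold higher in CD4 Foxp3-positive cells than in their controls. Ska3 had -0.93, E2f2 -0.92, E2f8 -0.88 and Ncapg2 -0.87.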

How the results depend on the processing

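Among the genes picked by the rule for values per array, no call changed direction under any of the 19 alternatives. No member was called higher in CD8 Foxp3-positive, or lower in CD4 Foxp3-positive, cells under these alternatives. In CD8 Foxp3-positive cells 33 to 40 members fell under the alternatives that kept all groups' arrays or fitted the contrasted groups, and 30 to 37 when 1 array was left out. In CD4 Foxp3-positive cells the 16 rises became 10 when only the contrasted groups were fitted, with fewer arrays to estimate the spread, and 9 to 17 when 1 array was left out. The interaction had 34 to 39 members called and the control comparison 35 to 41. Between Foxp3-positive groups the count of 1 became 3 with a robust prior with trend, 3 with genes at or above the median level, 0 with the contrasted groups alone, 2 with the replicate block, 2 with array weights and 0 to 2 when 1 array was left out; the cause was not tested. The members' median stayed between -0.54 and -0.46 in CD8 and between 0.19 and 0.32 in CD4 Foxp3-positive cells. Only the genes picked by the rule for values per array were counted here. For them 2518 alternative values kept their side of the threshold, 79 lost the call and 35 gained it. Members outside that rule are not in these counts. Among those, Aurka, Birc5, Cdk1, Cenpf, Kif23, Nuf2, Plk1, Top2a and Ube2c also lost at least 1 call when an array was left out.

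The labels give no meaning to the letters A to C. Over 18 pairs of same-letter arrays of different groups the correlation of deviations from the group means was -0.10 to 0.14 (median 0.03), with 2 pairs over 0.1, against -0.14 to 0.09 (median -0.01) over 36 pairs of different letters. This fell short of the level set for pairing, so the letters were not used as pairs. With the replicate block the members called were 37 in CD8, 15 in CD4, 38 for the interaction, 2 between Foxp3-positive and 40 between control cells. For 10 of 12 arrays the closest array of another group had the same letter, and array C had the lowest member median in all 4 groups, a hint of shared conditions from the data and not the design. The 3 arrays per group limit what small changes can be called, and no sample separates cytokines from Foxp3 or lineage from day.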
